A study of Homo sapiens with 35 samples.

Results

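The experiment was the depletion of TSPYL2 in HEK293T cells, a transformed line from human embryonic kidney, measured by total RNA sequencing. The libraries were chosen by their labels: 2 libraries of cells given a siPOOL against TSPYL2 were set against 3 libraries of cells given a control siPOOL, together 5 of the 35 libraries of the series. A siPOOL is a defined mixture of many short interfering RNAs against 1 transcript. The study depleted 1 Integrator subunit, INTS13, and several of Integrator's protein partners one by one, TSPYL2 among them, and it asked how these partners relate to Integrator in gene expression. Cells of the groups compared here were kept in medium with glucose and were transfected in 2 rounds with RNAiMax at 5 nM siPOOL. They were harvested with 72 hours of depletion given in the labels. Other libraries of the series came from control, INTS13-depleted and HDGF-depleted cells starved of glucose. Those libraries entered only the alternative fit with all 35 libraries. Total RNA was depleted of ribosomal RNA before stranded libraries were made. No label says that replicates came from separate cultures, so the p-values measure the spread between these libraries, which may be technical.

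TSPYL2 is an X-linked nuclear protein with the nucleosome assembly protein domain that it shares with the testis-specific protein TSPY, the NAP1-like histone chaperones and SET. Proteins with this domain bind histones and take part in the assembly of nucleosomes. TSPYL2 has been described as a regulator of transcription in TGF-beta signalling, as a brake on cell proliferation and, in mouse neurons, as a regulator of genes for synaptic proteins. Integrator cleaves nascent small nuclear RNAs and also ends transcription early at many protein-coding genes.

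The 3 promoters below belong to the genes called lower with the lowest adjusted p: TSPYL2 itself, SEC23A and VAMP3. They show the 250 bases before the RefSeq transcription start on GRCh38.p14, read 5′ to 3′ on the gene's own strand, and the places are chrX:53082117-53082366 on the plus strand, chr14:39103236-39103485 on the minus strand and chr1:7771046-7771295 on the plus strand. Capitals mark matches to the CCAAT box (CCAAT) in TSPYL2 and to the core ETS motif (CCGGAAG) in SEC23A and VAMP3, each searched on both strands, so that a reverse match reads ATTGG or CTTCCGG.
TSPYL2: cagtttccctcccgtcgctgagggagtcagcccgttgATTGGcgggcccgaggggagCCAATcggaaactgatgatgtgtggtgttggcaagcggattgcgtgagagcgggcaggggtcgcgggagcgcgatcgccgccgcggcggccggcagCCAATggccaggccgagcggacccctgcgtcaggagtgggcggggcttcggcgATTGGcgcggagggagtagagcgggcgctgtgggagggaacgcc
SEC23A: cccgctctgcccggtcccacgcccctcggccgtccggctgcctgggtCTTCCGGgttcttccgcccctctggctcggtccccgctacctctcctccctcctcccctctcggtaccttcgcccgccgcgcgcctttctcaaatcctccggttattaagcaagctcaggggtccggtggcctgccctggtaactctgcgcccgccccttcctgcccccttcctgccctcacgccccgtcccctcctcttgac
VAMP3: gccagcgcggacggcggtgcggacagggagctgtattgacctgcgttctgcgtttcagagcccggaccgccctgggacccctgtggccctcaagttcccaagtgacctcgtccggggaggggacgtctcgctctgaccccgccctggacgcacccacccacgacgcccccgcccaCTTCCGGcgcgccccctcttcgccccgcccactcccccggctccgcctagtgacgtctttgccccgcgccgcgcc

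The ETS match began 203 bases before the start in SEC23A and 75 bases before it in VAMP3. TSPYL2 held CCAAT matches at 213, 193, 97 and 44 bases before its start. The cyclic AMP response element (TGACGTCA), the E-box (CACGTG) and the TATA box (TATAAA) were searched the same way. Among the 11768 genes tested that had a promoter in the RefSeq table, 14.8% held the ETS motif, 35.1% the CCAAT box, 2.82% the cyclic AMP response element, 8.78% the E-box and 5.63% the TATA box. A promoter was found for 16 of the 23 genes called lower after TSPYL2 depletion, of which 3 held the ETS motif (18.8%), 7 the CCAAT box (43.8%), 2 the E-box, 1 the TATA box and 0 the cyclic AMP response element. The 16 and the 7 include TSPYL2 itself, the target of the siPOOL. A promoter was found for 14 of the 27 genes called higher, of which 2 held the ETS motif (14.3%), 3 the CCAAT box (21.4%), 1 the E-box, 1 the TATA box and 0 the cyclic AMP response element. These matches describe letters in a window, and the window says nothing about whether a factor bound there.

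The 5 libraries held between 27.8 M and 47.7 M counted reads. The TSPYL2 libraries, numbered 1 and 2 in the labels, held 40.2 M and 27.8 M, and the control libraries, numbered 1, 2a and 2b, held 35.5 M, 33.7 M and 47.7 M. Same-numbered libraries of different groups deviated together from their group means, so the number entered the fit as a block. The fit used the 13 libraries with these numbers, which also held 2 libraries each for depletion of ZEB1, ZNF608, ZNF609 and ZNF687. The HEK293T markers vimentin, keratin 18 and neurofilament medium chain were present in all 5 libraries. VIM stood at 415 and 436 counts per 1 M counted reads (CPM) in TSPYL2 libraries against 431, 561 and 585.5 CPM in controls. Keratin 8, also on the marker list, stood at 5.69 to 8.95 CPM. The renal progenitor genes PAX2 and LHX1 were low, at 0.394 to 2.84 CPM. Of 14 markers of blood, vessel, fibroblast, liver and differentiated kidney cells, 3 (UMOD, SLC34A1 and AQP2) were at 0 in all 5 libraries and the highest was COL1A1, at 1.07 to 7.97 CPM. Only 4 of the 14 passed the filter on low counts. The summed level of those 4, scaled by the TMM factors explained below, was 4.90 and 8.11 CPM in TSPYL2 libraries. In control libraries it was 2.18, 6.14 and 7.67 CPM. The groups overlapped, but within each number the TSPYL2 library was the higher, and the part of this in the results was not tested. In such bulk libraries, fewer cells of a type and less RNA per cell cannot be told apart.

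TSPYL2 itself fell to 47.9% of control. The gene (ENSG00000184205.14, chromosome X, 53082367 to 53088540 on hg38, plus strand) had 12.03 and 15.2 CPM (here and for the genes that follow scaled by TMM factors, which adjust for library composition) in TSPYL2 libraries 1 and 2, against 21.1, 36.2 and 37.6 CPM in control libraries 1, 2a and 2b. Both TSPYL2 libraries lay below all 3 controls, and control library 1 lay well below controls 2a and 2b. The log2 fold change was −1.06 ± 0.12 (SE), with an adjusted p of 0.00385 by edgeR's quasi-likelihood test over 18913 genes. The difference was −0.81 on the log2 scale within number 1 and −1.27 within number 2. In the 8 libraries of the other 4 depletions TSPYL2 stood at 15.2 to 30.5 CPM, so the lowest of them was no higher than TSPYL2 library 2, and the log2 fold changes of those depletions over the same controls lay between −0.49 and −0.20. Set against those 8 libraries, TSPYL2 was lower by 0.76 on the log2 scale in the TSPYL2 depletion (adjusted p = 0.0033, edgeR). The call rested on TSPYL2 library 2: without it the log2 fold change was −0.87 with an adjusted p of 0.243, and with no block for the number it was −1.22 with an adjusted p of 0.648. The titles number the same controls 1a, 1b and 2, and with the block set by those numbers it was −1.30 with an adjusted p of 0.23.

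At an adjusted p under 0.05, the threshold for a call throughout, 50 of 18913 genes were called (0.264% of genes tested), 27 higher (0.143%) and 23 lower (0.122%) in TSPYL2-depleted cells. Of the 50, 18 of the higher and 21 of the lower genes were protein-coding. At least 2-fold changes were found in 13 of the higher and 4 of the lower genes. In 49 of the 50 the TSPYL2 and control libraries did not overlap in CPM, as in 25.3% of all genes tested, and the exception was NBPF20, a member of a family of near-identical copies. The adjusted p lay between 0.04 and 0.05 for 45 of the 50, and a further 172 genes lay just outside the threshold, under 0.06. Without the number block 1 gene was called, and leaving out 1 of the 5 libraries gave between 1 gene (without TSPYL2 library 2) and 208 genes (without TSPYL2 library 1), with 4 genes without control 1, 2 genes without control 2a and 2 genes without control 2b. Other fits gave 1 gene with the block set by the numbers in the titles, 2 with controls 2a and 2b summed, 975 with the DESeq2 Wald test, 1760 with no filter on low counts, 2182 with the 5 libraries alone and 3533 with all 35 libraries. SEC23A was the 1 gene among the 30 called genes chosen by the rule for named genes that was called in every one of these fits.

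**Figure D1:**
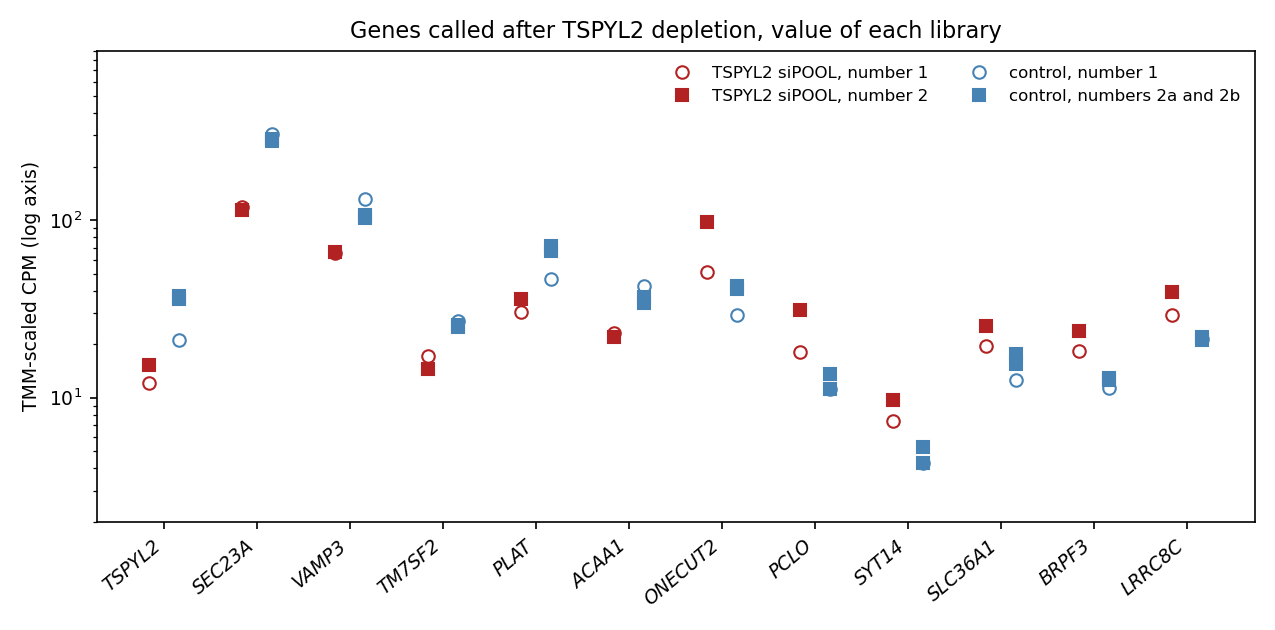
TMM-scaled CPM on a log axis (vertical) of 12 called genes (horizontal) in each TSPYL2 siPOOL library (red, left of each pair) and each control library (blue, right); open circles are number 1 and filled squares number 2. For all 12 genes both TSPYL2 libraries lie on 1 side of all 3 controls, with SEC23A at 118 and 113 CPM against 306, 288 and 278 CPM. The rule that named these genes required this separation, and 25.3% of all genes tested showed it.

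The gene with the lowest adjusted p belonged to membrane traffic. SEC23A, a subunit of the inner COPII coat that buds vesicles from the endoplasmic reticulum, fell to 39.6% of control. The gene (ENSG00000100934.15, chromosome 14, 39031919 to 39109646 on hg38, minus strand) had 118 and 113 CPM in TSPYL2 libraries, against 306, 288 and 278 CPM in controls. The groups lay far apart and the libraries within each group lay close together. The log2 fold change was −1.34 ± 0.09 (adjusted p = 1.92e-05, edgeR), with −1.37 within number 1 and −1.32 within number 2, and it lay between −1.35 and −1.30 in all 16 alternative fits. The 8 libraries of the other depletions held 242 to 282 CPM of SEC23A, and TSPYL2-depleted cells were lower than these by 1.16 on the log2 scale (adjusted p = 2.8e-05, edgeR).

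The other subunits of the COPII coat did not pass the test. Of 26 genes of the COPII coat and of endoplasmic reticulum exit sites that were tested, SEC23A was called, 25 were not, and 0 were higher. The paralog SEC23B had a log2 fold change of −0.25 ± 0.10 (adjusted p = 0.168, edgeR), the GTPase gene SAR1A −0.28 ± 0.13, and the outer coat genes SEC13 and SEC31A −0.13 ± 0.10 and −0.02 ± 0.09. Among cargo adaptors, SEC24A stood at 0.28 ± 0.13 and SEC24D at 0.10 ± 0.12, and SEC16A, the scaffold of exit sites, stood at 0.61 ± 0.18 (adjusted p = 0.098). The median of the 26 was −0.11, against 0.01 over all genes tested.

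VAMP3, the vesicle SNARE of recycling endosomes, fell to 57.2% of control. It had 65.2 and 66.4 CPM in TSPYL2 libraries, against 131, 107 and 103 CPM in control libraries, with no overlap. The log2 fold change was −0.81 ± 0.11 (adjusted p = 0.0181, edgeR), and the 8 libraries of the other depletions held 101 to 126 CPM. Of 38 SNARE genes tested VAMP3 was the 1 that was called, and 29 of the 38 had a negative fold change, with a median of −0.13. The brain SNARE genes VAMP1 and VAMP2 had log2 fold changes of 0.54 ± 0.16 and 0.28 ± 0.17, VAMP8 of −0.46 ± 0.17 and SNAP23 of −0.41 ± 0.09, none of them called. RAB2B, a small GTPase of the Golgi, fell by 0.59 on the log2 scale, with 21.2 and 15.4 CPM in TSPYL2 libraries against 31.3, 24.1 and 24.4 CPM in controls. The 17 COPI coat genes tested held 0 called genes, with a median of −0.12.

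Enzymes of lipid and amino acid metabolism were among the decreases. TM7SF2, a sterol reductase of cholesterol synthesis, had 17.1 and 14.5 CPM in TSPYL2 libraries, against 27.1, 25 and 25.6 CPM in controls (log2 fold change −0.71 ± 0.10, adjusted p = 0.035). The gene overlaps VPS51 on the same strand, so its reads may include some of that gene. Of 29 genes of cholesterol synthesis and uptake tested, TM7SF2 was called, 25 had a negative fold change and the median was −0.25. ACAA1, the peroxisomal thiolase of fatty acid breakdown, fell to 59.1% of control, with 23.3 and 21.9 CPM against 42.3, 34.1 and 36.8 CPM. ECH1, an enzyme in the breakdown of unsaturated fatty acids, fell by 0.52 on the log2 scale and DDHD2, a lipase, by 0.64. ASS1, which makes argininosuccinate in arginine synthesis, fell by 0.66. Of 20 genes of fatty acid synthesis and desaturation 0 were called, and FASN had a log2 fold change of 0.45 with an adjusted p of 0.275.

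The decreases included 3 genes for chromatin proteins, ANP32E, HMGB3 and SMARCD2, while BRPF3, a scaffold of histone acetyltransferase complexes, was called higher; these were grouped by role after their values were seen. ANP32E, a chaperone that removes the histone variant H2A.Z, had 228 and 222 CPM in TSPYL2 libraries, against 353, 317 and 316 CPM in controls (log2 fold change −0.56 ± 0.09, adjusted p = 0.042, edgeR). It was the 1 called gene among 24 other histone chaperones tested, whose median was −0.03. HMGB3, an HMG-box chromatin protein, had 140.0 and 135 CPM in TSPYL2 libraries, against 248, 198 and 196 CPM in controls, a fall of 0.66 on the log2 scale. SMARCD2, a subunit of BAF chromatin remodelling complexes, fell by 0.54. In all 3 genes both TSPYL2 libraries lay below all controls, as in all 23 genes called lower and in 11.8% of all genes tested. Of the 10 genes of Polycomb repressive complex 2 tested, 0 were called and the median was 0.01. The 13 genes of REST and its corepressors tested also held 0 called genes, with a median of −0.02.

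TSPYL2's relatives were measured beside it, and none was called. By level per length of exon, SET stood at 223 RPKM in TSPYL2-depleted cells and 270.4 RPKM in control cells, TSPYL1 at 33.5 and 34.5 RPKM, and TSPYL2 itself at 2.76 and 6.39 RPKM, so TSPYL2 was among the less abundant of the 8 family members tested. TSPYL1 had a log2 fold change of 0.06 ± 0.11 and TSPYL4 of 0.30 ± 0.15. Among the NAP1-like genes the log2 fold changes were −0.07 ± 0.10 for NAP1L1, 0.24 ± 0.12 for NAP1L2, −0.04 ± 0.13 for NAP1L3 and −0.21 ± 0.09 for NAP1L4, and SET stood at −0.29 ± 0.12 (adjusted p = 0.173, edgeR). TSPYL5, TSPYL6 and NAP1L5 were below the filter on low counts and were not tested.

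The remaining decreases included PLAT and SERPINF1, which code for secreted proteins, and the interferon-induced gene IFIT1. PLAT, the tissue plasminogen activator, had 30.5 and 36.1 CPM in TSPYL2 libraries, against 46.5, 67.2 and 71.4 CPM in controls (log2 fold change −0.79 ± 0.13, adjusted p = 0.042), and it was the 1 called gene among 8 fibrinolysis genes tested. SERPINF1, the secreted pigment epithelium-derived factor, had 29.6 and 28.3 CPM against 47.5, 42.4 and 48.9 CPM. IFIT1, an interferon-induced RNA-binding protein, had 7.11 and 7.23 CPM against 12.3, 11.2 and 11.3 CPM, and it was the 1 called gene among 33 interferon response genes tested, whose median was −0.09. Each of these 3 genes was lower in both TSPYL2 libraries than in any control, as were all 23 genes called lower. HBP1, an HMG-box transcriptional repressor, fell by 0.63 on the log2 scale. TSC22D3, the glucocorticoid-induced leucine zipper, had 524 and 449 CPM against 717, 715 and 767 CPM. YPEL5, a partner of the CTLH ubiquitin ligase, fell by 0.69, RNF167, a membrane-bound ubiquitin ligase, by 0.53, ANKRD37, an ankyrin repeat protein, by 1.11 at 2.03 to 4.82 CPM, and TMEM250 by 0.74. Outside the protein-coding genes, the host gene SNHG7 fell by 0.54, and the small nucleolar RNA SNORA15 lay under 1 CPM in all 5 libraries.

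The 18 protein-coding genes called higher included the transcription factor gene ONECUT2 and the synaptic genes PCLO and SYT14. ONECUT2, a homeodomain transcription factor, had 51.2 and 98.2 CPM in TSPYL2 libraries, against 29.3, 40.7 and 42.8 CPM in controls (log2 fold change 1.03 ± 0.18, adjusted p = 0.042, edgeR). PCLO, the presynaptic scaffold piccolo, had 18.1 and 31.3 CPM against 11.2, 11.3 and 13.6 CPM (1.04 ± 0.20). SYT14, an atypical synaptotagmin, had 7.36 and 9.68 CPM against 4.27, 4.29 and 5.30 CPM (0.90 ± 0.16). The increases of ONECUT2 and PCLO were larger within number 2, at 1.23 and 1.33 on the log2 scale, than within number 1, at 0.80 and 0.69. At lower levels the potassium channel gene KCNC1, the adhesion gene NFASC and the dendritic protein gene DDN were called higher, with log2 fold changes of 1.19, 0.99 and 0.96 and all libraries at 1.45 to 5.85 CPM. None of these 6 belonged to the list of 19 neuronal genes tested, which held 0 called genes, 15 positive and 4 negative fold changes and a median of 0.25. That median was 0.59 within number 1 and 0.09 within number 2.

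Membrane transporters, receptors and nuclear regulators were among the other increases. SLC36A1, a proton-coupled amino acid transporter, had 19.6 and 25.2 CPM in TSPYL2 libraries, against 12.5, 17.5 and 15.4 CPM in controls, and LRRC8C, a subunit of volume-regulated anion channels, had 29.04 and 39.6 CPM against 21.4, 21.9 and 21.1 CPM. Both TSPYL2 libraries were above every control for both genes, as in 26 of the 27 genes called higher and in 13.4% of all genes tested. BRPF3 had 18.2 and 23.7 CPM against 11.4, 12.5 and 12.9 CPM (0.81 ± 0.12, adjusted p = 0.035, edgeR). PPRC1, a coactivator related to PGC-1, stood at 0.70 ± 0.13 on the log2 scale, the homeobox gene HOXA3 at 0.72 ± 0.13 and the sphingosine 1-phosphate receptor gene S1PR3 at 0.72 ± 0.14. CCDC136, WBP1L and JPH1, the last a protein that joins the endoplasmic reticulum to the plasma membrane, had log2 fold changes of 0.64, 0.56 and 0.55. GPR75, an orphan receptor gene that overlaps the read-through gene GPR75-ASB3, had 1.25 and 2.32 CPM in TSPYL2 libraries against 0.454, 0.771 and 0.783 CPM in controls. The 9 called higher outside the protein-coding class were RNA genes, pseudogenes and 1 gene without a match in the annotation, at 0.0303 to 4.28 CPM. Over the same controls WBP1L was also called higher in 3 of the other 4 depletions (ZEB1, ZNF608 and ZNF609, log2 fold changes of 0.45 to 0.62). It stood at 0.33 in the ZNF687 depletion (adjusted p = 0.379, edgeR). The difference between TSPYL2 depletion and the other 4 did not pass the test (0.07, adjusted p = 0.617, edgeR). Further genes were called in the same direction in another depletion. SMARCD2 was lower in the ZNF687 depletion (−1.45, beside −0.54 after TSPYL2 depletion) and PLAT in the ZEB1 depletion. ASS1 and TSC22D3 were lower in the ZEB1 and ZNF608 depletions, and SERPINF1 and DDHD2 in the ZNF608 depletion. DDN, HOXA3, S1PR3 and SYT14 were higher in the ZNF608 depletion.

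Of the 49 called genes found in the annotation, 24 overlapped another protein-coding gene. These included ACAA1, ANKRD37, DDHD2, HBP1, IFIT1, RAB2B and RNF167 among the decreases and HOXA3, JPH1, KCNC1 and WBP1L among the increases. The strand setting of the counting is not given in the sources used here, so reads of such a gene and its neighbour cannot be told apart.

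**Figure D2:**
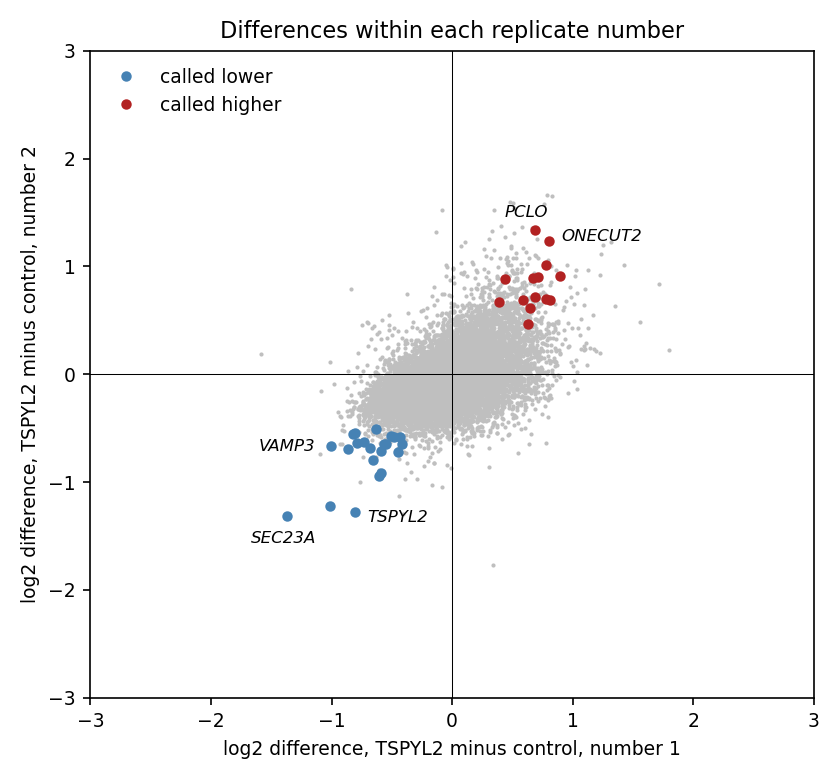
Log2 difference of TSPYL2 minus control CPM within number 1 (horizontal, 1 library each) and within number 2 (vertical, 1 TSPYL2 library against 2 controls) for the 11453 genes that averaged 2 or more on the log2 CPM scale. Called genes lie in the lower left (blue) and upper right (red), and across all plotted genes Pearson's r was 0.495.

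The differences within number 1 and within number 2 come from separate libraries. Across the 11453 genes that averaged 2 or more on the log2 CPM scale, Pearson's r between the differences was 0.495, given as a description since genes are not independent replicates. The differences had an SD of 0.33 across genes within number 1 and 0.28 within number 2. Among called genes, SERPINF1 stood at −0.68 within number 1 and −0.69 within number 2, VAMP3 at −1.01 and −0.66, TMEM250 at −0.59 and −0.92, and LRRC8C at 0.44 and 0.88. These 4 genes had the same direction in both numbers, and among them the size differed most for LRRC8C.

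Beside the called genes, the fold changes followed the length of the transcript. In protein-coding genes sorted by the summed length of their exons into 5 groups of equal size, the median log2 difference between TSPYL2 and control was −0.19 in the shortest group, with a median length of 2187 bases, and then −0.11, −0.04 and 0.02, and 0.14 in the longest group, with a median length of 10960 bases. Within number 1 the shortest and longest groups stood at −0.20 and 0.15, and within number 2 at −0.19 and 0.13. Protein-coding genes called higher had a median exonic length of 7402 bases and those called lower of 3605 bases, against 5215 bases over all 13724 tested. Long noncoding RNA genes had a median of 0.21 (3394 genes) and pseudogenes of 0.17 (1178 genes). Long noncoding genes took 1.63% and 1.80% of the reads in TSPYL2 libraries, against 1.33%, 1.33% and 1.36% in controls.

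**Figure D3:**
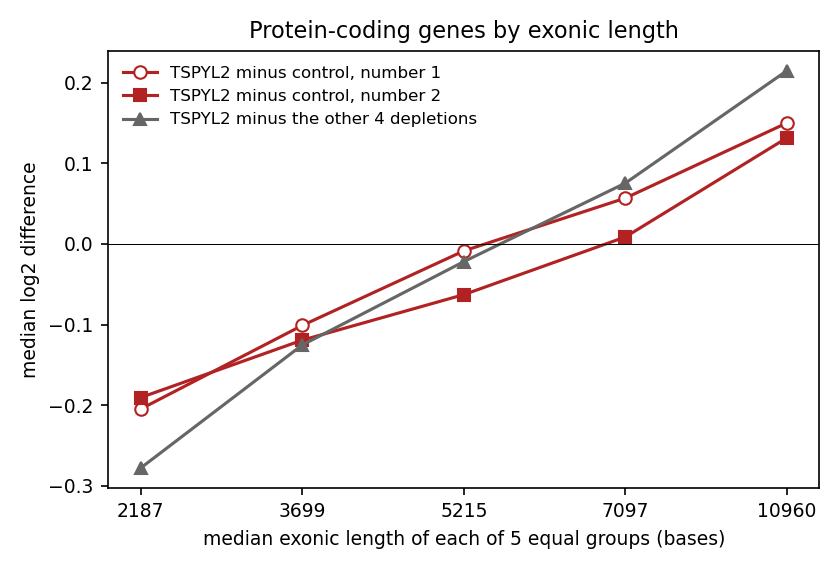
Median log2 difference (vertical) of protein-coding genes in 5 equal groups of exonic length (horizontal, labelled with each group's median length in bases), for TSPYL2 minus control within number 1 (open circles) and number 2 (squares) and for TSPYL2 minus the mean of the other 4 depletions (triangles). All 3 lines rise with length, within number 1 over −0.20 to 0.15.

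The ribosomal protein, oxidative phosphorylation, core histone and glycolysis lists lay below the median of all genes, with 0 genes called. Their median exonic lengths were 2914.5, 2316, 509 and 5579 bases, against 5215 bases over all protein-coding genes tested, so all but the glycolysis list were shorter. Cytosolic ribosomal protein genes had a median of −0.40, and 82 of 84 tested had a negative fold change. RPS13 had 722 and 567 CPM in TSPYL2 libraries, against 1319, 727 and 712 CPM in controls (log2 fold change −0.56, adjusted p = 0.138, edgeR), and control library 1 stood far above the other libraries for this gene. Ribosomal protein genes took 10.5% and 7.53% of the reads in TSPYL2 libraries, against 13.3%, 8.94% and 8.95% in controls, and within each number the share was lower in the TSPYL2 library. The nuclear genes of oxidative phosphorylation had a median of −0.40, with 79 of 80 tested negative. NDUFA2, a subunit of respiratory complex I, had a log2 fold change of −0.59 (adjusted p = 0.073), and ATP5MC2, of ATP synthase, of −0.58 (adjusted p = 0.122). Core replication-dependent histone genes had a median of −0.43, with 37 of 39 tested negative, and H2AC15 stood at −0.78 and H2AC8 at −0.79, each with an adjusted p of 0.059. Near-identical copies of ribosomal protein and histone genes share reads, so values of single members are uncertain. Glycolysis genes had a median of −0.27 with 21 of 23 negative, PGK1 at −0.50 and GAPDH at −0.39.

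DNA replication genes had a median of −0.18 with 34 of 39 tested negative, and mitosis genes of −0.14 with 22 of 32 negative, each with 0 called. Within number 1 and number 2 the medians were −0.24 and −0.17 for DNA replication and −0.23 and −0.11 for mitosis. Within the mitosis list the proliferation antigen gene MKI67 lay in the other direction, with 204 and 498 CPM in TSPYL2 libraries against 141, 215 and 241 CPM in controls (log2 fold change 0.86, adjusted p = 0.054). Its TSPYL2 library 1 lay below control 2a, so the groups overlapped. The G1 cyclins, their kinases and inhibitors had a median of −0.11 over 23 genes. Genes of the integrated stress response, the programme started by phosphorylation of eIF2 alpha, had a median of −0.29 with 36 of 40 negative, but the median was 0.03 within number 1 and −0.47 within number 2. CHAC1, a late target of this programme, had 6.04 and 7.78 CPM in TSPYL2 libraries, against 4.76, 24.1 and 29.3 CPM in controls. TSPYL2 library 1 was above control 1 while TSPYL2 library 2 was far below controls 2a and 2b, and the gene was not called (adjusted p = 0.171, edgeR).

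Lists tied to TSPYL2's described roles held 0 called genes, where 0.264% of all genes tested were called. At that share a list of this size would seldom hold a call, so the 0 says little about these roles. Among 26 genes of TGF-beta signalling and its targets the median was 0.07, with 15 positive and 11 negative fold changes, and TIMP3, a matrix protease inhibitor induced by TGF-beta, stood at −0.48 (adjusted p = 0.081). The 28 p53 target genes had a median of 0.00 to 2 decimals with 14 positive and 14 negative. CDKN1A, the cell cycle inhibitor p21, had 17.6 and 13.6 CPM in TSPYL2 libraries, against 23.0, 20.2 and 18.7 CPM in controls (log2 fold change −0.46 ± 0.10, adjusted p = 0.054, edgeR), just outside the threshold. In the neuronal list BSN, the presynaptic scaffold bassoon and a relative of PCLO in function, stood at 1.12 with an adjusted p of 0.059. Secreted matrix genes had a median of 0.16 over 28 genes, 0.49 within number 1 and 0.00 within number 2. Of 872 genes of all lists tested, 7 were called, all lower: TSPYL2, SEC23A, VAMP3, TM7SF2, PLAT, IFIT1 and ANP32E. Over all genes tested 0.122% were called lower and 0.143% higher. The lists hold the target itself and were chosen with earlier results of these data known, so the 2 shares cannot be compared.

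The remaining lists held 0 called genes each, beside 0.264% called over all genes tested. Heat shock genes had a median of −0.03 over 18 genes, endoplasmic reticulum chaperones and the unfolded protein response of −0.08 over 35, lysosome and autophagy genes of −0.06 over 44, and immediate early and MAP kinase feedback genes of −0.07 over 33. Epithelial genes repressed by ZEB1 stood at −0.06 over 18 genes, and cytochrome P450 genes at 0.32 over 9. The 28 Integrator and associated genes tested had a median of −0.08. INTS13 had 119.6 and 114 CPM in TSPYL2 libraries, against 168, 129.6 and 130.4 CPM in controls (log2 fold change −0.32 ± 0.12, adjusted p = 0.145, edgeR). Among the other proteins that the series targeted, HDGF stood at −0.33 ± 0.10 (adjusted p = 0.091) and ZNF609 at 0.42 ± 0.15 (adjusted p = 0.137), while ZEB1, ZNF608, ZNF687, ZMYND8 and ZNF655 lay between −0.03 and 0.08.

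**Figure D4:**
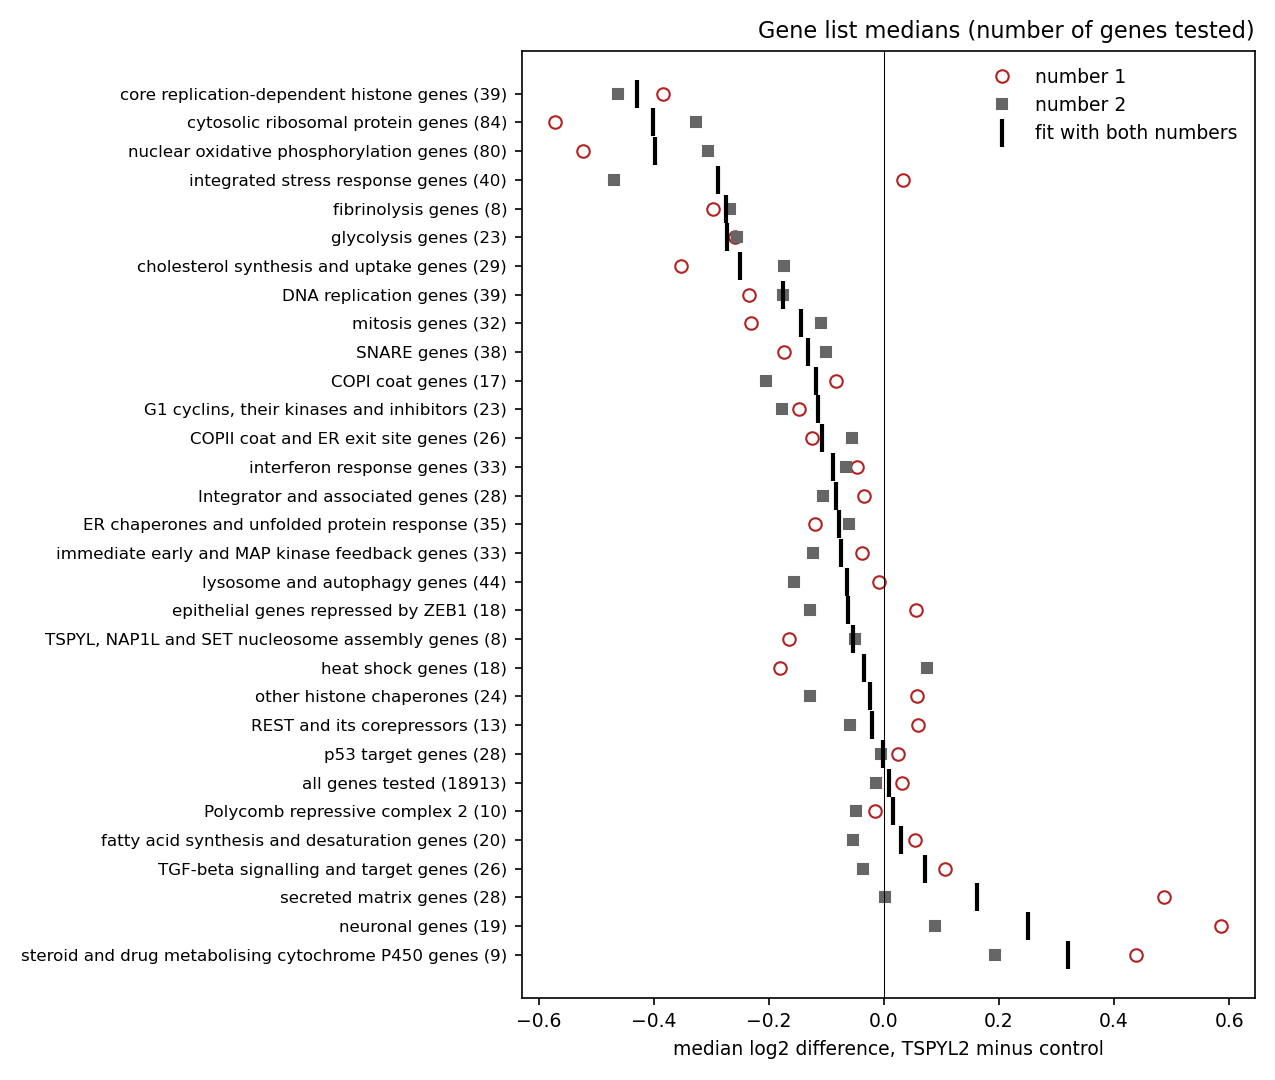
Median log2 difference of TSPYL2 minus control (horizontal) for each gene list (vertical, with the number of genes tested), within number 1 (open circles), within number 2 (squares) and in the fit with both numbers (bars). Histone, ribosomal protein and oxidative phosphorylation lists lie at −0.43 to −0.40 in the fit, and the integrated stress response list lies at 0.03 within number 1 and −0.47 within number 2.

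A second comparison set the TSPYL2 libraries against the 8 libraries of the other 4 depletions with the same numbers, with no control library in the contrast. Here 4467 of 18913 genes were called (23.6%), 2334 higher (12.3%) and 2133 lower (11.3%) in TSPYL2-depleted cells. Without TSPYL2 library 1 the count was 840, without TSPYL2 library 2 it was 3, and with no block for the number it was 1. The same TSPYL2 libraries stand in this contrast and in the one against controls. Of the 23 genes lower than control 20 were also called lower here, and of the 27 genes higher than control 23 were also called higher. The 7 that were not called here were ASS1, TSC22D3, SMARCD2, WBP1L, LRRC8C, S1PR3 and DDN.

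In this contrast most members of the ribosomal protein, oxidative phosphorylation and core histone lists passed the test. Of ribosomal protein genes 73 of 84 were lower in TSPYL2-depleted cells, of oxidative phosphorylation genes 68 of 80, of core histone genes 35 of 39 and of glycolysis genes 12 of 23, with 0 higher in any of them. The medians of the 5 groups of exonic length ran over −0.28 to 0.21. CDKN1A fell by 1.05 on the log2 scale (adjusted p = 9.4e-05), with 17.6 and 13.6 CPM in TSPYL2 libraries against 19.5 to 63.9 CPM in the other depletions, whose own fold changes over the controls lay between 0.05 and 1.42. FOS, an immediate early transcription factor, had 4.65 and 2.55 CPM in TSPYL2 libraries against 3.55 to 10.9 CPM, and 12 of 33 immediate early and MAP kinase feedback genes were called lower, among them JUNB, EGR2, DUSP1 and ETV5. FOS was 0.10 on the log2 scale over control in TSPYL2-depleted cells and 0.74 to 1.56 over control in the other 4 depletions, which share those controls. G0S2, an inhibitor of lipolysis, was lower by 1.04.

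Among genes higher in this contrast were long transcripts. KCNQ1OT1, an imprinted antisense RNA, had 81.9 and 146 CPM in TSPYL2 libraries against 23.6 to 72.3 CPM in the other depletions and 34.3, 58.1 and 69.1 CPM in controls. KMT2D, a histone H3 lysine methyltransferase, had 51.0 and 128 CPM against 26.9 to 46.9 CPM in the other depletions and 28.8, 40.9 and 40.5 CPM in controls. For both genes TSPYL2 library 2 was far above every other library named here. Of 28 secreted matrix genes 9 were higher than in the other depletions and 0 lower, among them COL4A1, COL5A1, FN1, LAMA1, NID1 and HSPG2. Over all genes tested 12.3% were called higher. The matrix list had a median exonic length of 9144.5 bases, against 5215 bases over all protein-coding genes tested. In this contrast the longest of the 5 groups of exonic length had a median of 0.21, and the part of length in these calls was not tested. Against controls the log2 fold change of HSPG2, the basement membrane proteoglycan perlecan, was 0.60 with an adjusted p of 0.169.

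The depletion of INTS13 offered values from other libraries and other controls: 2 INTS13 libraries and 4 control libraries of a second set. INTS13 fell to 14.9 CPM there, against 107 CPM in its controls. In that comparison 5353 of 18155 genes were called (29.5%), 2580 higher (14.2%) and 2773 lower (15.3%). Of the 50 genes called after TSPYL2 depletion 48 were tested there. Of the 27 higher genes 14 were also higher after INTS13 depletion (51.9%) and 0 were lower, and of the 23 lower genes 7 were also lower (30.4%) and 5 were higher. The 21 genes called in the same direction in both were 42% of the TSPYL2 calls and 0.392% of the INTS13 calls. Differences between the depletions were not tested, since they come from separate sets of libraries.

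SEC23A, the strongest decrease after TSPYL2 depletion by adjusted p, was also called lower after INTS13 depletion. It averaged 89.6 ± 0.46 CPM in INTS13 libraries (SD, n = 2) against 255 ± 11.6 CPM in their controls (SD, n = 4), a log2 fold change of −1.51 beside −1.34 for TSPYL2 depletion. In the depletions of ZEB1, ZNF608, ZNF609 and ZNF687, which share the controls of TSPYL2, the log2 fold changes of SEC23A were −0.26, −0.20, −0.15 and −0.08. TM7SF2 stood at −1.22 after INTS13 depletion, with 14.4 ± 0.38 CPM against 33.6 ± 2.31 CPM, beside −0.71 after TSPYL2 depletion. TMEM250, DDHD2, SNHG7 and ACAA1 were the other genes lower in both comparisons, together with TSPYL2 itself, which had 28.5 CPM in INTS13 libraries against 39.0 CPM in their controls (log2 fold change −0.46, adjusted p = 0.0026, edgeR). VAMP3 stood at 0.07 after INTS13 depletion, and ANP32E, PLAT, IFIT1 and YPEL5 lay between 0.01 and 0.14, none of them called there.

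The genes higher in both comparisons included ONECUT2, PCLO, KCNC1 and DDN, and BRPF3, PPRC1, SLC36A1, LRRC8C, S1PR3, JPH1 and WBP1L. After INTS13 depletion ONECUT2 stood at 0.59 and PCLO at 0.76 on the log2 scale, beside 1.03 and 1.04 after TSPYL2 depletion, and WBP1L at 1.09 beside 0.56. CDKN1A was at 2.61 after INTS13 depletion and −0.46 after TSPYL2 depletion, and the median of the p53 target genes was 0.81 beside 0.00. The median of protein-coding genes by gene length ran from −0.03 in the shortest of 5 groups to 0.05 in the longest after INTS13 depletion, and from −0.13 to 0.09 after TSPYL2 depletion.

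**Figure D5:**
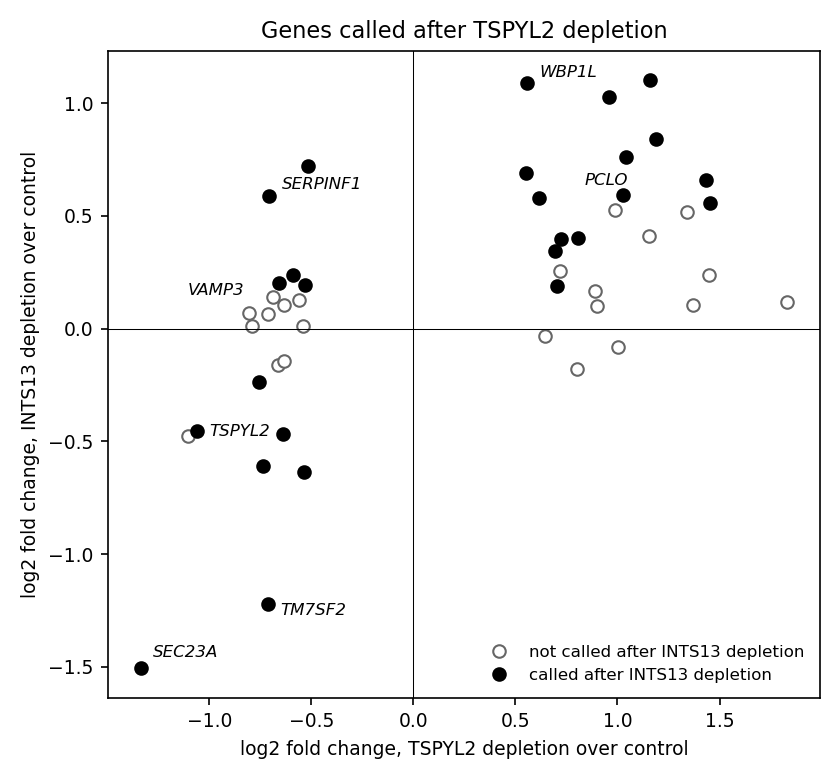
Log2 fold change over control after TSPYL2 depletion (horizontal) and after INTS13 depletion (vertical, other libraries and controls) of 48 genes called after TSPYL2 depletion; filled points were also called after INTS13 depletion. SEC23A lies at −1.34 and −1.51, VAMP3 at −0.81 and 0.07, and SERPINF1 at −0.71 and 0.59.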

How the data were processed

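The deposited table gave raw read counts per gene for 35 libraries, taken by the authors before duplicate removal as the table's name states; exon lengths per gene stood beside them in the deposited table. FastQC, cutadapt, STAR and the hg38 build are named, without versions, per the submitters' processing notes. The counter, annotation release and strand setting are not given in the sources used here. All 37 mitochondrial genes had 0 counts. Identifiers were matched to GENCODE 29 (58478 of 60665, 96.39%), and no column was without a sample.

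Counts of 13 libraries were filtered with filterByExpr (18913 genes), scaled by TMM and tested with edgeR 4.0.16 in R 4.3.3 (quasi-likelihood, two-sided, Benjamini-Hochberg over all genes), with group and replicate number as terms; the fit had 6 residual degrees of freedom. CPM are TMM-scaled except for the levels of single cell markers and the shares, which use all reads. The summed level of markers of other cells is TMM-scaled and covers the 4 of 14 that were tested. The sign ± gives the standard error unless SD is stated. Within-number log2 differences used a prior count of 2. Numbers come from the libraries' descriptions (controls 1, 2a, 2b); the titles number the same controls 1a, 1b and 2. Same-numbered libraries deviated together in 15 of 15 pairs of groups (median r 0.749, lowest 0.422, over 11419 genes), the check by which the number was used as a block. Counts of controls 2a and 2b differed by more than sampling noise (chi-square per degree of freedom 5.08, against 101.5 for controls 1 and 2a), and both were kept as the labels number them; whether they are repeat libraries of 1 culture is not given, and summing them was an alternative.

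INTS13 was fitted with the glucose-fed libraries of its own set, without a block. Named genes were TSPYL2, its family, the other siPOOL targets, up to 15 called protein-coding genes in each direction that averaged 2 or more in log2 CPM and whose groups did not overlap, up to 3 such noncoding genes, called list members, up to 4 members of lists without calls, and up to 5 genes in each direction against the other depletions; 1 of them is not reported here, and other names in the report, and the grouping by role, were chosen after their values were seen. The members and lists were chosen with earlier results of these data known. Alternatives were the block, the numbering, the libraries fitted, size factors, upper-quartile scaling, DESeq2 1.42.0, filters, summed controls and leaving out each library. The script was run on simulated counts with known changes. Promoters are from RefSeq (GRCh38.p14).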

Additional observations from a re-analysis of the deposited data

Results flagged for a closer look

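Genes were flagged if they were called in opposite directions after TSPYL2 and after INTS13 depletion, with no overlap of libraries in either comparison. The rule was met by 5 genes, all lower after TSPYL2 depletion. Over all genes tested, 25.3% did not overlap in the TSPYL2 comparison and 29.5% were called in the INTS13 comparison. RNF167 lay next to the threshold after INTS13 depletion (adjusted p = 0.0495, edgeR). The log2 fold change after TSPYL2 depletion minus that after INTS13 depletion was −1.30 for SERPINF1, a secreted inhibitor of blood vessel growth, and −1.24 for ECH1, a fatty acid oxidation enzyme. It was −0.863 for HMGB3, −0.829 for RAB2B and −0.728 for RNF167. SERPINF1 averaged 28.9 CPM in TSPYL2 libraries against 46.3 CPM in their controls, and 16.3 CPM in INTS13 libraries against 10.9 CPM in theirs. These differences between depletions were not tested, and the 2 depletions belong to sets of libraries with different control levels.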

How the results depend on the processing

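The call of TSPYL2 itself held in 13 of 16 alternative fits, and SEC23A was called in all 16. TSPYL2 was not called with no replicate block (log2 fold change −1.22), with the block set by the numbers in the titles (−1.30) and without TSPYL2 replicate 2; over the fits that leave out 1 library the fold change ran over −1.23 to −0.87. The count of called genes, 50, depended far more on the fit. With no replicate block it was 1, with title numbers 1, with controls 2a and 2b summed 2, with the DESeq2 Wald test 975, with no filter on low counts 1760, with the 5 libraries alone 2182 and with all 35 libraries 3533. The block by number rests on the labels and on 15 of 15 pairs of groups deviating together. Leaving out 1 library gave 1 to 208 genes. The number 2 libraries alone, an alternative chosen after seeing the data in which the spread comes from controls 2a and 2b only, gave 5700. For members of gene lists called, 7 in the report, the counts in the same order were 1, 1, 2, 88, 228, 246, 331, 1 to 11 and 517. For named genes, 30 called in the report, the count was 1 with no replicate block, 1 with title numbers, 2 with the summed controls and 1 to 16 leaving out 1 library. Against the other 4 depletions, 4467 genes in the report, the count was 1 with no replicate block, 3 to 840 leaving out 1 TSPYL2 library and 7904 with number 2 libraries alone. Scaling moved the split of calls, with 51 higher and 20 lower with upper-quartile scaling and 36 and 25 with DESeq2 size factors, against 27 and 23. A filter at 1 CPM gave 36 higher and 16 lower. The cause of these changes was not tested. None of the 30 named called genes changed direction in the 16 fits. The rule that named the largest changes among them required a call, no overlap and the same direction within both numbers. A change of direction was therefore unlikely by selection.

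With 2 TSPYL2 libraries and 1 control of number 1, each call depends on the shared spread of 13 libraries, and most calls lie next to the threshold. Depth of 27.8 M reads or more limits genes under about 1 CPM most. The knockdown left 47.9% of TSPYL2 RNA, and protein was not measured here.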
